A study of Mus musculus with 19 samples.

Results

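The genes examined here are 10 angiogenic growth factors and receptors in retinal microglia, out of 27299 genes with reads in at least 1 sample. They were chosen by name, with earlier results of these data known. The vascular endothelial growth factor (VEGF) family ligands were *Vegfa*, *Vegfb*, *Vegfc* and *Pgf*, the platelet-derived growth factor (PDGF) chains were *Pdgfa* and *Pdgfb*, and *Igf1* codes for insulin-like growth factor 1. The receptors were *Flt1*, which codes for VEGF receptor 1, and the co-receptors *Nrp1* and *Nrp2*. All 10 genes had reads and entered the comparison, without a filter on low values.

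Bulk RNA-seq had been run on sorted retinal microglia, the resident macrophages of the retina, of 6 samples collected 3 days after the laser (called CNV d3) and of 6 samples of mice without laser (control). In the laser model of choroidal neovascularization (CNV), focal burns break the membrane under the retinal pigment epithelium and vessels grow in from the choroid; 6 burns were set per eye. Both groups were mice of 8 weeks according to the labels, which name the strain C57BL/6J, while the methods of the study name *Cx3cr1* GFP/+ mice, so that 1 allele of *Cx3cr1* would be replaced by a GFP reporter in both groups. Retinal cells were sorted for CD45, CD11b and CX3CR1 and against Ly6C and Ly6G, with CD45 given as positive in the labels and as low in the methods. Whether each sample came from 1 animal is not given in the labels, so the p-values measure the spread between these samples, which may in part be technical.

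All values are normalized counts, that is, reads per gene divided by a size factor for the depth of the sample. Between 10963178 and 22335233 reads lay on genes in the control samples and between 23532260 and 29523018 in the CNV d3 samples. With 3 reads taken as the smallest signal, the floor was between 3.01 and 5.96 normalized counts in control and between 2.22 and 2.68 in CNV d3, for counting error only. The 10 microglia markers, among them *P2ry12*, *Tmem119* and *Sall1*, summed to between 1354510 and 1524980 normalized counts in control and between 754090 and 1135280 in CNV d3, and 7 of them fell. Markers of monocytes summed to between 221 and 1022 in control and between 1219 and 4438 in CNV d3, where *Ly6c2*, *Ccr2*, *Plac8* and *Ms4a4c* rose, 4 of 8. Of the other 8 marker lists, those of pericytes and of platelets did not overlap between the groups and are given beside the PDGF genes, while those of endothelial cells, Müller glia and astrocytes, photoreceptors, pigment epithelium, border macrophages and neutrophils overlapped. Within the list of Müller glia and astrocytes, whose sum *Glul* and *Slc1a3* carry, 3 of 8 genes rose, *Clu* (21.8 to 80.8), *Slc1a2* (0.331 to 23.9) and *Dkk3* (2.69 to 38.0), and *Slc1a3* fell (2117 to 1358). The part of these shifts in the results was not tested, and in bulk samples fewer cells of a type and less RNA per cell cannot be told apart. In CNV d3 replicates 4 to 6, *Xist* was at most at 0.866 and *Ddx3y*, a gene of the Y chromosome, at 1239 to 1450 normalized counts. In all control samples and in CNV d3 replicates 1 to 3, *Xist* was at least at 3116 and *Ddx3y* had no read. The labels give no sex, so each result was also computed with the 9 samples of the second kind alone. A further difference, that the labels split every control sample but of the lasered ones only replicate 4 into 2 parts, cannot be told apart from the group.

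VEGF family ligands bind receptor tyrosine kinases on endothelial cells, and the neuropilins present these ligands, or class 3 semaphorins, to their receptors. VEGF-A is induced by hypoxia and is the target of anti-angiogenic therapy in neovascular eye disease. PDGF-B recruits pericytes to new vessels, and IGF-1 is a trophic factor that microglia and macrophages can secrete.

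The members differed widely in level. Compared per kilobase (kb) of exon, so that genes of different length can be set side by side, the highest 5 in control were *Pdgfb* with 806 ± 153 normalized counts per kb (SD, n = 6), *Nrp1* with 617 ± 74.9, *Vegfb* with 296 ± 76.9, *Pdgfa* with 140 ± 49.6 and *Nrp2* with 100.1 ± 32.5. *Igf1* followed with 15.7 ± 16.3. *Pgf*, *Vegfc*, *Flt1* and *Vegfa* were near the floor, with means from 2.73 down to 0.0418 per kb. Neighbours in this order were not separated in every sample, since *Pdgfb* was above *Nrp1* in 5 of 6 control samples and *Pdgfa* above *Nrp2* in 4 of 6. In CNV d3, *Nrp1* (692 ± 107 per kb) was above *Pdgfb* (537 ± 109) in 6 of 6 samples. Below them, the order of *Vegfb* (329), *Pdgfa* (155), *Nrp2* (73.1), *Igf1* (44.3) and *Vegfa* (2.69) also held in 6 of 6 CNV d3 samples for each pair of neighbours. *Vegfa* was above *Pgf* (2.53) in 2 of 6 CNV d3 samples and *Pgf* above *Flt1* (1.01) in 3 of 6, so these genes cannot be ranked.

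**Figure D1:**
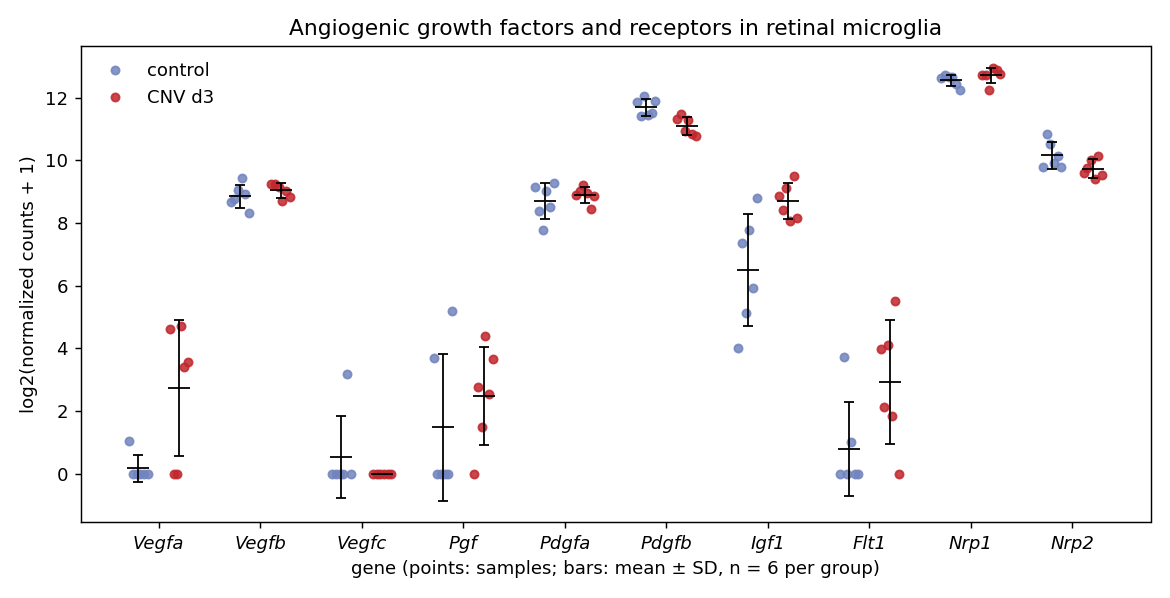
Levels of the 10 genes in each sample, as log2(normalized counts + 1) on the vertical axis; points are samples, and bars give the mean ± SD of 6 samples per group. *Nrp1* and *Pdgfb* lie highest in both groups, *Vegfa*, *Vegfc*, *Pgf* and *Flt1* lie at or near 0 in many samples, and *Igf1* spreads most among the well-measured genes in control.

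A gene was called differentially expressed (DEG) where limma gave an adjusted p under 0.05 and a log2 fold change (log2FC) beyond 1.5 in either direction, fitted to log2(normalized counts + 1). Of all 27299 genes 3.91% were increased DEG and 1.07% decreased DEG. Of the 10 members, 1 was an increased DEG by limma, *Igf1*. With edgeR and with DESeq2 the 1 increased DEG was *Vegfa*, and *Igf1* did not pass. By limma, edgeR or DESeq2 0 members were decreased DEG, with 0 below a log2FC of -1.5 at an unadjusted p under 0.05 by limma. By adjusted p alone with limma, with no limit on the fold change, 8.29% of all genes rose and 4.57% fell. Among the members 1 rose (*Igf1*) and 1 fell (*Pdgfb*). The groups did not overlap with CNV d3 higher in 4.64% of all genes and with CNV d3 lower in 2.83%, and 0 of the 10 members separated the groups in either direction. Their median log2FC was 0.19 beside 0.15 over all genes. Neither limma call among the members held when only the 9 samples with *Xist* reads were compared, as given at each gene.

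**Figure D2:**
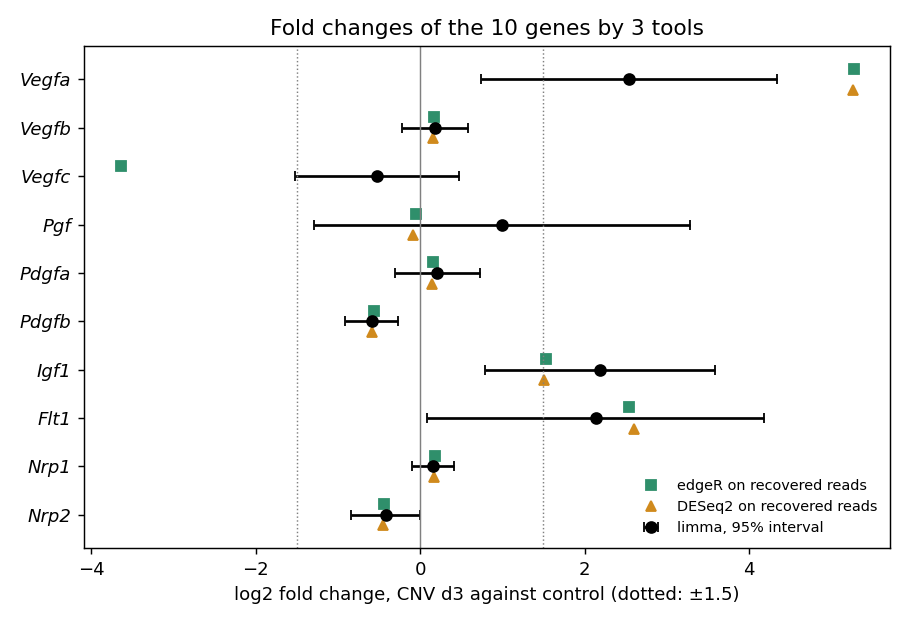
Log2 fold change of CNV d3 against control on the horizontal axis for each of the 10 genes; black points with bars are limma on log2(normalized counts + 1) with 95% intervals, squares are edgeR and triangles DESeq2 on the recovered reads, and dotted lines mark 1.5 in either direction. *Pdgfb* has a narrow interval below 0, *Igf1* a wide interval above 0, and the tools lie apart for *Vegfa*, *Vegfc* and *Pgf*, which have few reads.

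*Igf1* (chr10:87858265-87937042, plus strand, GRCm38) had the largest change among the well-measured members. In control it was at 15.0, 164, 33.8, 217, 59.2 and 443 normalized counts in replicates 1 to 6, and in CNV d3 at 463, 339, 558, 265, 722 and 284. All CNV d3 samples lay above 5 of the control samples, while control replicate 6 lay above 3 of the CNV d3 samples. The spread in control was wide, with a 29.5-fold difference between the highest and the lowest sample against 2.73-fold in CNV d3. The means were 155 ± 161 and 439 ± 179 (SD, n = 6), a 2.82-fold difference. Its log2FC, a difference of mean log2 values and not the log of that ratio, was 2.19 (SE 0.66, 95% interval 0.79 to 3.59). It had an adjusted p of 0.0395 by limma and an exact two-sided permutation p of 0.0152. The call was lost with edgeR (log2FC 1.53, adjusted p = 0.0962) and DESeq2 (1.502, adjusted p = 0.0502) and, by limma, in 10 of 12 fits that left out 1 sample, in which adjusted p lay between 0.0176 and 0.132. Of 10 alternatives set in advance that kept all samples, edgeR and DESeq2 among them, 6 kept the call and 4 lost it. Among the 9 samples with *Xist* reads the log2FC of *Igf1* was 2.30 with an adjusted p of 0.277 by limma. Monocyte markers, given above, were also higher in CNV d3.

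The 2 genes most like *Igf1* in their pattern over the 12 samples, after the mean of each group was taken out, were *Stab1*, which codes for a scavenger receptor of macrophages (Pearson r = 0.90), and *4931406P16Rik* (r = 0.89). These are the highest values among 9712 genes with a mean of at least 100 normalized counts, from samples that share their library preparation, and they are given as a description. *Stab1* itself was at 2058 normalized counts in control and 3059 in CNV d3.

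*Pdgfb* (chr15:79995874-80014977, minus strand, GRCm38) fell after laser treatment. The control samples were at 3699, 2719, 4218, 2779, 2887 and 3815 normalized counts and the CNV d3 samples at 2570, 2826, 1935, 2495, 1810 and 1764. Of the CNV d3 samples 5 of 6 lay below every control sample, and CNV d3 replicate 2 alone lay within the control range. The means were 3353 ± 637 and 2234 ± 452 (SD, n = 6), or 0.666 of the control level. The log2FC of *Pdgfb* was -0.59 (SE 0.15, 95% interval -0.91 to -0.26), with an adjusted p of 0.0179 by limma and an exact two-sided permutation p of 0.00649. The call held with edgeR, DESeq2 and voom and under each other scaling and pseudocount, with adjusted p between 0.00231 and 0.0236, and with the replicate number as a block (0.0487), and was lost without control replicate 1 or 6 or without CNV d3 replicate 3, 5 or 6, with an adjusted p of at most 0.0635. Among the 9 samples with *Xist* reads the log2FC was -0.45 with an adjusted p of 0.234 by limma, and CNV d3 replicates 1 to 3 had a mean of 2444 ± 459 where replicates 4 to 6 had 2023 ± 409 (SD, n = 3). *Gp9*, a platelet gene, also fell (534 to 196). Of the same list, *Itga2b* had means of 0 and 5.40 in control and CNV d3, *Treml1* of 0.669 and 1.05 and *Tubb1* of 3.81 and 1.40. None of these passed the test, and *Ppbp* and *Gp1bb* had no read. The summed platelet list, which *Gp9* carries, was at 381 to 711 in control and at 58.1 to 320 in CNV d3. The part of this list in the *Pdgfb* result was not tested. Nearest to *Pdgfb* in pattern were *C1qa*, a chain of complement C1q that microglia express (r = 0.89), and *Mcrip1* (r = 0.88).

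*Pdgfa* (chr5:138976014-138997370, minus strand, GRCm38), the other PDGF chain, had a median of 441 normalized counts in control (218 to 618) and of 484 in CNV d3 (348 to 592). Its difference was smaller than the spread, with a log2FC of 0.21 (95% interval -0.31 to 0.73) and an adjusted p of 0.604 by limma. Its exons share 813 bases with *6330403L08Rik* on the opposite strand, and the counting used no strand, so its count is uncertain.

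Over all 12 samples the balance of the PDGF chains differed between the groups. The uncertain count of *Pdgfa* enters both the ratio and the shares per kb. The log2 ratio of *Pdgfb* to *Pdgfa* within a sample, which does not depend on the size factor, was 3.001 ± 0.66 in control and 2.20 ± 0.31 in CNV d3 (SD, n = 6). This is a difference of -0.80 (exact two-sided permutation p = 0.00649, adjusted over 4 ratios 0.0260). Values ran from 2.43 to 4.26 in control and from 1.71 to 2.44 in CNV d3. Per kb, *Pdgfb* made up 80.1 to 93.5% of the 2 chains in control and 71.0 to 80.3% in CNV d3. The difference stayed below p = 0.05 in each of 12 exact tests that left out 1 sample (-0.91 to -0.55, highest p = 0.0173). It was -0.81 among the 9 samples with *Xist* reads, with an exact permutation p of 0.0952.

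**Figure D3:**
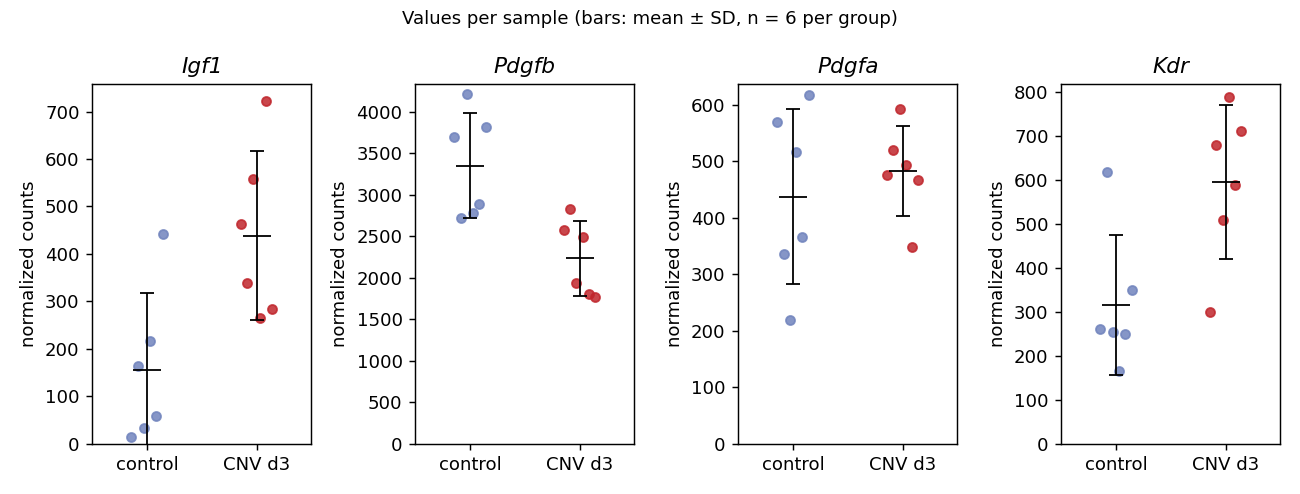
Normalized counts per sample of *Igf1*, *Pdgfb*, *Pdgfa* and the VEGF receptor gene *Kdr* in control and CNV d3; points are samples and bars the mean ± SD of 6 samples. For *Igf1*, 1 control sample at 443 reaches into the CNV d3 range, and for *Pdgfb* 5 of 6 CNV d3 samples lie below every control sample.

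*Vegfb*, a VEGF family ligand that binds VEGF receptor 1, was the main ligand of this family in both groups. It had a median of 460 normalized counts in control (320 to 683) and of 546 in CNV d3 (412 to 609). Per kb it made up 94.2 to 100% of the 4 VEGF family ligands in control and 95.3 to 99.8% in CNV d3. No change of *Vegfb* (chr19:6982473-6987651, minus strand, GRCm38) was detected, with means of 475 ± 123 and 528 ± 81.3 (SD, n = 6), a log2FC of 0.18 (95% interval -0.22 to 0.58) and an adjusted p of 0.577 by limma. The genes nearest to it in pattern were *Psmb2*, a proteasome subunit (r = 0.95), and *Apoe*, which codes for apolipoprotein E (r = 0.92).

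*Vegfa* (chr17:46016993-46032369, minus strand, GRCm38), the ligand of VEGF receptors 1 and 2, was barely detected. In control, 1 read was found in replicate 1 and none in the other samples. In CNV d3, 32, 0, 0, 29, 12 and 13 reads were found in replicates 1 to 6, or 23.6, 0, 0, 25.1, 9.61 and 10.8 normalized counts, so 4 of 6 samples held reads. Pooled over the samples and set against depth, the ratio of CNV d3 to control was 62.6, with a 95% interval from 10.9 to 2500 for counting error only. By limma the log2FC of *Vegfa* was 2.54 (SE 0.84, 95% interval 0.74 to 4.34), with an adjusted p of 0.0629 and an exact permutation p of 0.0606. On the recovered reads *Vegfa* was past the threshold with edgeR (log2FC 5.28, adjusted p = 0.0331) and DESeq2 (5.27, adjusted p = 0.0184). When every sample was thinned to the depth of the shallowest one, 4 of 6 CNV d3 samples and 1 of 6 control samples still held reads. Of CNV d3 replicates 1 to 3, only replicate 1 held reads, and among the 9 samples with *Xist* reads the log2FC was 1.37 with an adjusted p of 0.493 by limma. The log2 ratio of *Vegfa* to *Vegfb* differed by 2.36 (exact permutation p = 0.0541, adjusted over 4 ratios 0.0722). It differed by 1.16 with a pseudocount of 5 (p = 0.0649 by the same exact test) and by 1.004 among the 9 samples with *Xist* reads (p = 0.488 by that exact test). For the log2 ratio of *Igf1* to *Vegfa* the difference was -0.35 (exact permutation p = 0.790).

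*Vegfc*, which codes for the main growth factor of lymphatic vessels, and *Pgf*, placental growth factor, had few reads as well. *Vegfc* (chr8:54077606-54187096, plus strand) had 8 reads in control replicate 5 and no read in any other sample, and with both group means under the floor of 3 reads no fold is given. *Pgf* (chr12:85166635-85177790, minus strand, both GRCm38) had 11 and 18 reads in control replicates 1 and 6 and none in the other 4. In CNV d3 it had 0, 7, 2, 23, 6 and 14 reads. The pooled ratio of *Pgf* was 1.30 with a counting interval from 0.813 to 2.13. The log2FC of *Pgf* was 0.99 with a 95% interval from -1.29 to 3.28, which includes changes of either sign, and the estimate was below 0 with edgeR (-0.05) and DESeq2 (-0.09).

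*Flt1* (chr5:147561604-147726011, minus strand, GRCm38), the receptor of VEGF-A, VEGF-B and placental growth factor, had 12 reads in control replicate 2, 1 read in control replicate 4 and none in the other 4 control samples. In CNV d3 it had 20, 4, 18, 3, 56 and 0 reads, so that 5 of 6 samples held reads and replicate 5 stood highest. The pooled ratio of *Flt1* was 5.65 with a counting interval from 3.16 to 10.98. Between samples the spread was too wide for a call, with a log2FC of 2.14 (SE 0.96, 95% interval 0.09 to 4.19), an adjusted p of 0.176 by limma and an exact permutation p of 0.0563.

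*Nrp1*, the co-receptor of VEGF-A and of class 3 semaphorins, was the member with the most reads. Control samples ranged from 4804 to 6770 normalized counts with a median of 6350, and CNV d3 samples from 4820 to 7803 with a median of 6867. Of the CNV d3 samples 4 of 6 lay above every control sample, while replicate 3 was at 4820. No change was detected for *Nrp1* (chr8:128358604-128503363, plus strand, GRCm38), with means of 6035 ± 733 and 6768 ± 1050 (SD, n = 6), a log2FC of 0.16 (95% interval -0.10 to 0.41) and an adjusted p of 0.455 by limma. Among the 9 samples with *Xist* reads the log2FC of *Nrp1* was 0.008 by limma. CNV d3 replicates 1 to 3 had a mean of 6102 ± 1111 and replicates 4 to 6 of 7433 ± 440 (SD, n = 3). The exons of *Nrp1* share 80 bases with the microRNA gene *Mir1903*.

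*Nrp2* (chr1:62703285-62818695, plus strand, GRCm38), the second neuropilin and a co-receptor of VEGF-C, ranged from 871 to 1834 normalized counts in control (median 1040) and from 674 to 1134 in CNV d3 (median 815). Of the CNV d3 samples 4 of 6 lay below every control sample, and 2 of the control samples, replicates 2 and 3, lay above every CNV d3 sample. The means of *Nrp2* were 1186 ± 385 and 866 ± 179 (SD, n = 6), with a log2FC of -0.42 (SE 0.20), an adjusted p of 0.203 by limma and an exact permutation p of 0.0823. The log2 ratio of *Nrp1* to *Nrp2* was 2.39 ± 0.36 in control and 2.97 ± 0.45 in CNV d3. That difference of 0.58 had an exact permutation p of 0.0368 and did not pass after adjustment over 4 ratios (0.0722). *Nipsnap2* (r = 0.89) and *Zfp445* (r = 0.86) were nearest to *Nrp2* in pattern, and *Zfp964* (r = 0.87) and *Gm43984* (r = 0.86) to *Nrp1*.

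The stretches of 250 bases before the start of *Nrp1* and of *Vegfa* are shown because *Nrp1* had the highest and, in control, *Vegfa* the lowest level per kb among VEGF-A and its receptors. Both come from RefSeq on GRCm38.p6, at chr8:128358823-128359072 on the plus strand and chr17:46032378-46032627 on the minus strand. The starts are those of RefSeq, which differ from the Gencode positions above. The *Nrp1* stretch begins 219 bases inside the Gencode gene, which starts further upstream, and the *Vegfa* stretch ends 8 bases before the Gencode gene. They are written from 5′ to 3′ in the direction of the gene, and capitals mark matches to GAGGAA on either strand, a core motif of ETS factors such as PU.1.
Nrp1: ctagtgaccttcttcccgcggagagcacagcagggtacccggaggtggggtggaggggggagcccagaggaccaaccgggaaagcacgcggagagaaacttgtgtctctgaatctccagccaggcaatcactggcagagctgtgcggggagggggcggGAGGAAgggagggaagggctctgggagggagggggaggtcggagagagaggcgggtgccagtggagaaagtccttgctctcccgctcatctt
Vegfa: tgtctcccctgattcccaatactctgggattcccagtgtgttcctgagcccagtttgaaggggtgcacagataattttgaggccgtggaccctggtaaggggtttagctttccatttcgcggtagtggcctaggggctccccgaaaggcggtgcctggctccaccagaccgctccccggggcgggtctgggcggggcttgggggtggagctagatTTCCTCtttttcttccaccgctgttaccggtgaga
The *Nrp1* match begins at base 159 and the *Vegfa* match, on the opposite strand, at base 216. Promoter windows of 300 bases, 250 before and 50 after each start, were at hand for 9 of the 10 members, without *Pdgfb*, and made up 12 windows. GAGGAA was found in 5 of the 12 windows and in 28.3% of all 32851 promoter windows. The hypoxia response core ACGTG, on either strand, was in 1 of the 12 windows, at an inner start of *Vegfa*, and in 19.6% of all. The AP-1 motif TGANTCA was in 1 of the 12, that of *Igf1*, and in 7.81% of all. These searches describe letters in a window, not binding.

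The partners of the members were described with 9 lists of 72 pathway genes, of which 65 had reads. Of these 65, 16 rose and 3 fell by adjusted p with limma, and 46 did not pass, beside 8.29% and 4.57% of all genes. The lists were chosen with earlier results of these data known, so these shares are no test of the lists. Low genes weigh on the share over all genes. Of the 12753 genes with at least 10 normalized counts in 6 samples, 2160 rose and 1544 fell in a limma fit of those genes alone. By the DEG rule 10 of the 65 pathway genes were increased and 0 decreased, beside 3.91% and 1.07% of all genes. Of the 12753 genes past the filter, 734 were increased and 336 decreased DEG. Among the 65, 0 were decreased also by edgeR and DESeq2, and 0 were below a log2FC of -1.5 at an unadjusted p under 0.05 by limma. Over the 65 genes the median log2FC was 0.35 beside 0.15 over all genes. Genes under the floor in both groups allow no fold, and without them, and with genes at 0 in 1 group set at their bound, the median of the other 51 was 0.69. Genes above the floor in 1 group alone stay in, so this choice can itself move the median. The same holds for the medians of single lists given with bounds or without genes under the floor. The median over all genes was not computed in this way. It was 0.098 over the 12753 genes past the filter on low values. That is a different choice of genes, so it cannot be set against 0.69. Each of the 19 called genes kept its direction in every fit that left out 1 sample, and 12 of them stayed past the threshold in all 12 such fits. Among the 9 samples with *Xist* reads 10 of the 19 were still past the threshold, all in the same direction. These fits reuse samples from which the 19 genes were picked, so a kept direction is no independent check.

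**Figure D4:**
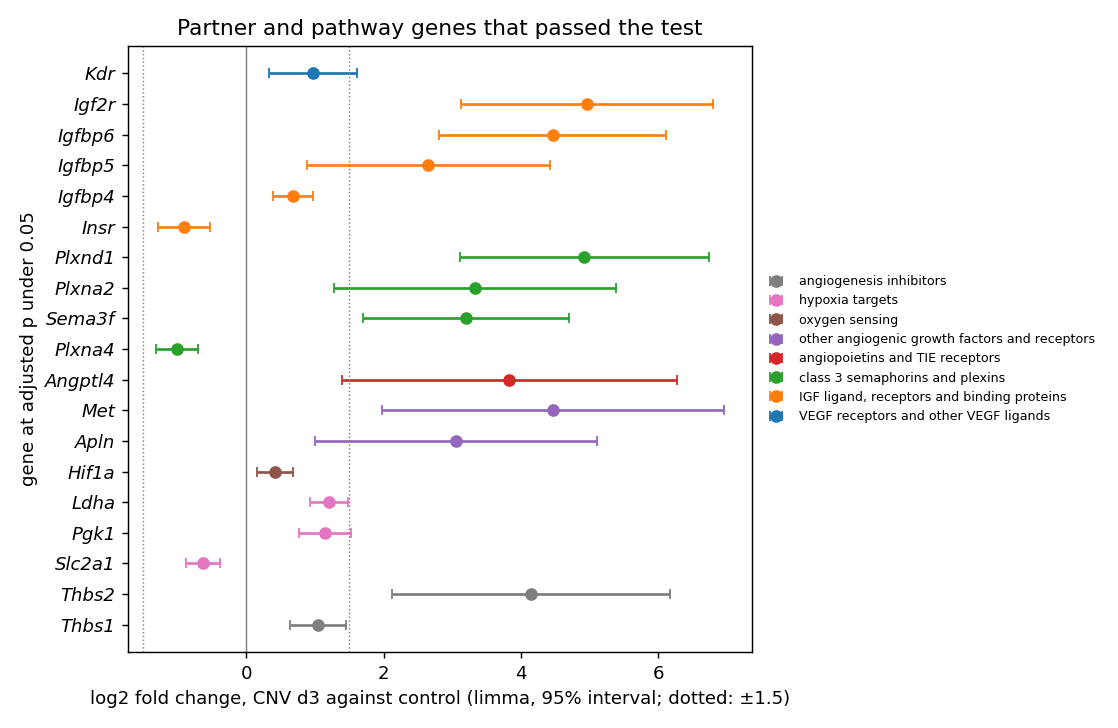
Log2 fold change of CNV d3 against control with 95% intervals by limma for the 19 pathway genes at an adjusted p under 0.05, coloured by list; dotted lines mark 1.5 in either direction. Of the genes shown 16 lie above 0, and *Insr*, *Plxna4* and *Slc2a1* lie below 0.

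Among the other VEGF receptors, *Kdr*, which codes for VEGF receptor 2, rose. It ranged from 164 to 617 normalized counts in control (median 257) and from 298 to 787 in CNV d3 (median 634). The log2FC of *Kdr* was 0.98 (SE 0.30), with an adjusted p of 0.0452 by limma, and the call stayed in 2 of 12 fits that left out 1 sample. It was lost among the 9 samples with *Xist* reads (0.70, adjusted p = 0.402). *Kdr* is also a marker of endothelial cells, and of the 8 measured markers of that list it was the 1 that rose. *Pecam1* fell from 392 to 138 normalized counts, *Cdh5* had means of 29.1 and 38.5 in control and CNV d3 (log2FC 1.54, adjusted p = 0.441 by limma), *Egfl7* of 4.504 and 7.97 (2.10, adjusted p = 0.141) and *Tie1* of 13.3 and 0.508 (adjusted p = 0.546). *Tek*, *Esam* and *Erg* had means of at most 1.33 in either group, and *Cldn5* and *Emcn* had no read. The summed list was at 500 to 990 in control and at 448 to 970 in CNV d3. *Flt4*, VEGF receptor 3, had no read in control and a mean of 6.53 normalized counts in CNV d3, from reads in 3 of 6 samples (adjusted p = 0.133 by limma). For these 2 genes the median log2FC was 1.42, or 0.55 with *Flt4* at its bound.

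The PDGF receptors were at or near the floor. *Pdgfra* had means of 0.692 and 0.133 normalized counts in control and CNV d3, and *Pdgfrb* of 0.356 and 2.92. Of the 4 other PDGF genes, 0 passed the test with limma, edgeR or DESeq2, and 0 had an unadjusted p under 0.05 by limma. This list had a median log2FC of -0.50, or -0.08 over the 2 genes above the floor. In the list of pericyte markers *Cspg4* rose from 0.544 to 224 normalized counts, while *Rgs5* and *Notch3* had means of at most 3.51 in either group, *Abcc9* of 0.716 and 10.8 and *Acta2* of 5.24 and 2.46, and did not pass the test. The sum of that list was at 1.00 to 20.4 in control and at 103 to 406 in CNV d3.

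In the IGF list 4 of the 9 measured genes rose and 1 fell. *Insr*, the insulin receptor, fell from 1289 ± 285 to 686 ± 137 normalized counts (SD, n = 6; log2FC -0.91, SE 0.18, adjusted p = 0.00312 by limma), and the groups did not overlap. *Igf1r*, the receptor of IGF-1, was at 321 ± 183 in control and 140 ± 33.3 in CNV d3, and did not pass with limma (log2FC -1.01, adjusted p = 0.0806) but did with edgeR (0.0448) and DESeq2 (0.00622). *Igfbp4*, a binding protein that sequesters IGFs, rose without overlap from 1284 ± 203 to 2067 ± 348 (log2FC 0.69, adjusted p = 0.00328 by limma). *Igf2r*, which takes up IGF-2 and sorts lysosomal enzymes, had 1 read in 1 control sample, none in the others and 7.48 to 240 normalized counts in CNV d3 (adjusted p = 0.00137 by limma). *Igfbp6*, a binding protein that prefers IGF-2, was detected in 1 control sample at 9.11 and in all CNV d3 samples at 18.2 to 64.4 (adjusted p = 0.0014 by limma). *Igfbp5* had no read in control and a mean of 11.6 in CNV d3, at least 1.95-fold above 3 reads in the shallowest control sample, and its call stayed in 2 of 12 fits that left out 1 sample. In the IGF list the median log2FC was 0.58, or 0.83 over the 6 genes for which a fold can be given.

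Of 11 measured class 3 semaphorins and plexins, which signal with the neuropilins, 3 rose and 1 fell. *Plxna4*, a co-receptor of semaphorins with neuropilin-1, fell from 3374 ± 573 to 1688 ± 322 normalized counts (SD, n = 6; log2FC -1.001, SE 0.14, adjusted p = 0.000336 by limma). *Plxnd1*, the receptor of semaphorin 3E, rose from 2.69 to 65.1 ± 40.6 (log2FC 4.92, adjusted p = 0.00134 by limma). For both plexins the groups did not overlap. *Plxna2* (0.535 to 27.4) and *Sema3f* (0.846 to 13.7), a ligand of neuropilin-2, rose from a few reads in control (adjusted p = 0.0325 and 0.00707 by limma), and *Sema3f* was not past the threshold with edgeR (adjusted p = 0.0716). The median log2FC of this list was 1.38, or 2.50 over the 7 genes for which a fold can be given.

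In the list of angiopoietins, *Angptl4* was past the threshold (adjusted p = 0.038 by limma) with 1 control sample at 111 normalized counts, 5 at 0 and CNV d3 samples at 9.52 to 48.5, and it was not with edgeR (0.69). The list's median log2FC was 1.12. Among 11 other measured growth factors and receptors, *Met*, the receptor of hepatocyte growth factor, and *Apln*, which codes for apelin, rose by limma. *Met* was at 16.1 ± 37.9 and 87.6 ± 54.9 normalized counts (SD, n = 6; adjusted p = 0.0191) and was not past the threshold with edgeR (0.2003) or DESeq2 (0.165). *Apln* had no read in control and a mean of 20.1 in CNV d3, from reads in 4 of 6 samples (adjusted p = 0.0497 by limma), at least 3.38-fold above 3 reads in the shallowest control sample. The median log2FC of these growth factors and receptors was 0.57, or 0.82 with the bounds.

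Genes around the oxygen response moved unevenly. *Hif1a*, the oxygen-regulated subunit of the hypoxia-inducible factor, rose modestly from 4457 ± 845 to 5914 ± 559 normalized counts (SD, n = 6; log2FC 0.43, SE 0.12, adjusted p = 0.0325 by limma), a call that stayed in 4 of 12 fits that left out 1 sample. The other 7 oxygen sensing genes did not pass, and the median log2FC of the list was 0.18. Of 9 hypoxia targets, the glycolytic genes *Ldha* and *Pgk1* rose without overlap between the groups. *Ldha* went from 6367 ± 1141 to 14676 ± 2389 (log2FC 1.21, adjusted p = 3.88e-05 by limma) and *Pgk1* from 512 ± 138 to 1117 ± 160 (log2FC 1.15, adjusted p = 0.000544 by limma). *Slc2a1*, the glucose transporter GLUT1 and likewise a hypoxia target, fell without overlap from 2137 ± 235 to 1381 ± 173 (log2FC -0.63, adjusted p = 0.00198 by limma). The median log2FC of the 9 targets was 0.64.

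Of 6 angiogenesis inhibitors, the thrombospondins *Thbs1* and *Thbs2* rose, and the median log2FC was 0.19, or 0.33 over the 5 genes for which a fold can be given. *Thbs1* went from 702 ± 194 to 1414 ± 232 normalized counts without overlap (SD, n = 6; log2FC 1.05, adjusted p = 0.00204 by limma). *Thbs2* had 1 control sample with reads, at 2.02, and 5 of 6 CNV d3 samples with reads, up to 58.2 (adjusted p = 0.00887 by limma). Among the 9 samples with *Xist* reads, *Ldha*, *Pgk1*, *Slc2a1*, *Plxna2*, *Plxna4*, *Plxnd1*, *Igf2r*, *Igfbp4*, *Igfbp5* and *Igfbp6* stayed past the threshold. *Kdr*, *Met*, *Apln* and *Angptl4* did not, nor did *Insr* (adjusted p = 0.0517 by limma), *Sema3f* (0.0668), *Thbs1* (0.0930), *Thbs2* (0.161) and *Hif1a* (0.253).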

How the data were processed

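Retinal microglia of 6 lasered and 6 control samples were sequenced as single reads from cDNA of picogram amounts of RNA, made by template switching and PCR without molecular identifiers. The authors mapped reads with STAR 2.7.2b to Gencode M25, counted them with featureCounts 1.6.4 at default settings and removed genes without reads. Deposited was a signal per gene and sample, its number of reads over the size factor estimated with DESeq2 1.22.2. The authors' fold changes, adjusted p-values and group means were also deposited and were not used.

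All values (100%) were whole multiples of 1 read (tolerance 1e-06), worth 0.739 to 1.99 normalized counts, so reads were recovered. The main test was limma 3.58.1 in R 4.3.3 on log2(value + 1), with a variance trend and Benjamini-Hochberg adjustment over 27299 genes. A fold change on this scale compares means of logs, so for low genes it can lie below or above that of edgeR. *Vegfa* had a log2FC of 2.54 by limma and 5.28 with edgeR, and *Angptl4* of 3.83 and 0.86. Single genes and ratios were also tested by exact permutation over all 924 labelings. Alternatives were edgeR 4.0.16, DESeq2 1.42.0 and voom on the reads, other pseudocounts (0.5 and 5), TMM and total-read scaling, a filter on low values (10 normalized counts in 6 samples), thinning, fits with the replicate block, and fits without each sample in turn. The comparison of the 9 samples with *Xist* reads and the covariate for *Ddx3y* reads were added after the data were seen. All tools were tested on simulated data.

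Members and lists were chosen with earlier results of these data known. From each list, genes at an adjusted p under 0.05 are named, with *Kdr*, *Flt4*, *Pdgfra*, *Pdgfrb* and *Igf1r* whatever their values. Other genes named are those of the marker lists and *Xist* and *Ddx3y*, chosen after their values were seen. Gene positions and exon lengths came from Gencode M21 on GRCm38, and 27238 of the 27299 genes matched. Parts of 1 sample were merged by the authors and counted once. Replicate numbers gave no sign of pairing the samples.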

Additional observations from a re-analysis of the deposited data

Results flagged for a closer look

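Of 19 groups of 6 values tested for a sample far from the others, 6 had one. The limit used flags about 1 in 20 groups of normally distributed values. It does not apply to genes near 0, since a group with reads in 1 sample alone is always flagged. Of these, 5 are genes with few reads. *Vegfa* in control replicate 1 was at 1.07 normalized counts and *Vegfc* in control replicate 5 at 8.03, with all other samples of the group at 0. *Pgf* in control replicate 6 was at 35.7, with the nearest control sample at 11.8. *Flt1* in control replicate 2 was at 12.1, with the nearest at 1.01, and in CNV d3 replicate 5 at 44.9, with the nearest at 16.1. *Nrp1* in CNV d3 replicate 3 was at 4820, below the nearest CNV d3 sample at 6698.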

How the results depend on the processing

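The number of increased members, by the DEG rule and by adjusted p alone, fell from 1 to 0 with a pseudocount of 5 (*Igf1* adjusted p = 0.0514 by limma), with the replicate block (0.0709), among the 9 samples with *Xist* reads and with a covariate for *Ddx3y* reads. In the latter 2 settings the number of decreased members also fell from 1 to 0. When 1 sample was left out, each of these 3 counts ranged from 0 to 1. With edgeR and DESeq2 the 1 increased member was *Vegfa* in place of *Igf1*. In the limma fits that left out 1 sample, *Igf1* stayed past the threshold only without control replicate 4 or 6, and *Vegfa* passed it without CNV d3 replicate 2 (adjusted p = 0.0300) or 3 (0.0295). *Igf1* kept a positive log2FC in every setting, from 1.502 to 2.65. *Pgf* was reversed with edgeR (-0.049), with DESeq2 (-0.089) and in both *Xist* and *Ddx3y* settings (-0.061). The log2 ratio of *Igf1* to *Vegfa* was reversed with a pseudocount of 5 (0.76), after thinning (0.046) and among the 9 samples (0.94), and ranged from -1.02 to 0.17 when 1 sample was left out. Among the 9 samples the ratios of *Pdgfb* to *Pdgfa* (-0.81) and of *Nrp1* to *Nrp2* (0.38) were no longer past p = 0.05 in exact permutation tests (0.0952 and 0.190), with fewer samples. When 1 sample was left out, the ratio of *Nrp1* to *Nrp2* ranged from 0.47 to 0.73 and was past 0.05 in 4 of 12 tests, and that of *Vegfa* to *Vegfb* ranged from 1.90 to 2.95 and was past it without CNV d3 replicate 2 (2.95) or 3 (2.93). The cause was not tested.

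Same-numbered samples deviated together with correlations between -0.05 and 0.06. These values give no sign of pairing by number, while a batch shared by some samples was not tested. Among the 10 members the replicate block changed the call of *Igf1* alone. Of the 19 called pathway genes it kept 16, without *Igfbp5*, *Plxna2* and *Apln*, and added *Pdk1*, and over all genes it called 921 increased and 215 decreased DEG. With it the ratios of *Pdgfb* to *Pdgfa* and of *Nrp1* to *Nrp2* both had p = 0.0312 in an exact paired permutation test, the lowest p that 6 pairs allow. By the same test those of *Vegfa* to *Vegfb* and of *Igf1* to *Vegfa* had p = 0.125 and 0.875. Over all genes, limma called 1068 increased and 293 decreased DEG, edgeR 839 and 281, DESeq2 908 and 572, and voom 1260 and 489. The median log2FC was 0.15 with limma, 0.10 with edgeR and -0.01 with DESeq2 and voom. By adjusted p alone limma called 2264 increased and 1247 decreased genes and DESeq2 2493 and 2170. Among the 9 samples limma called 524 and 166 DEG (1022 and 540 by adjusted p alone), and with the covariate 684 and 189 (1340 and 731). The filter on low values left no value for *Vegfa*, *Vegfc*, *Pgf* and *Flt1*. At this depth 3 reads were worth up to 5.96 normalized counts. Thinning to the shallowest sample left reads of *Vegfa* in 4 CNV d3 samples, as before, and took *Flt1* and *Pgf* from 5 to 4.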
